A study of Homo sapiens with 4 samples.

Results

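The MAX network is a family of transcription factors that share a basic helix-loop-helix leucine zipper and bind DNA in pairs at the E-box. MAX is the common partner. MYC, MYCL and MYCN pair with MAX and activate growth genes, while MXD1, MXI1, MXD3, MXD4, MNT and MGA pair with the same MAX and repress, and MLX is a second hub that pairs with the glucose sensors MLXIP and MLXIPL and with some repressors. In neuroblastoma the network is known for amplification of MYCN, and lines with amplified MYCN usually carry little MYC. The genes described here are MYC, MYCL, MAX, MXD1, MXD3, MXD4, MXI1, MNT, MGA and MLX, chosen by symbol and matched to the table by Ensembl identifier. All 10 of them are among its 25693 genes.

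The cells were NGP, an established line from a human neuroblastoma with amplified MYCN. They had been synchronised by serum starvation and then held for 24 h with ethanol, the control, or with Nutlin-3, a small molecule that releases p53 from MDM2. Synchronisation was shared by both treatments, and all cells came from 1 line grown with serum before the starvation. Single cells were captured on the ddSeq droplet device and read from the 3′ end of polyadenylated RNA, in 2 libraries per treatment whose ERCC spike-in RNAs were diluted 1000-fold in one and 10000-fold in the other. The table names its 500 columns by 12 bases and the treatment but not by library, so each treatment was 1 pool of 250 columns, no test between treatments could be made, and no difference below has a replicate check.

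The ethanol pool held 1342134 human counts and the Nutlin-3 pool 1301232. Single columns held 253 to 13502 counts in total, and 113 columns of each pool exceeded 4000 counts (called large here) while 137 did not (small). Of the 250 names in a pool, 219 also occurred in the other pool, so columns are not treated as cells. The p53 targets CDKN1A and MDM2 were higher in Nutlin-3, with 188 against 70 and 504 against 315 counts. All 12 adrenergic neuroblastoma markers were detected, and their summed level was 1984 CPM (counts per 1000000 human counts of the pool) in ethanol and 2239 CPM in Nutlin-3. Their highest log2 value was 0.49 (0.31 to 0.68) for CHGA, a granule protein, and their lowest -0.10 (-0.32 to 0.13) for HAND2, a sympathetic lineage factor. Of 8 mesenchymal markers 6 were in the table, at 123 CPM summed in ethanol and 174 CPM in Nutlin-3. These did not share a direction. The smooth muscle gene ACTA2 had 3 counts in the ethanol pool and 69 in the other, and COL1A1 had 29 and 47, while FN1 had 37 and 19. THY1 had 89 and 83, COL3A1 5 and 6 and PRRX1 2 in each pool, and COL1A2 and TWIST2 were not analysed here. Of 8 blood cell markers only LYZ and CD68 were analysed, at 17.9 and 40.7 CPM summed, and of 6 epithelial markers 4 were, at 16.4 and 26.9 CPM. LYZ had 24 and 49 counts, and CD68 0 and 4. EPCAM had 16 and 21, KRT19 3 and 14, KRT8 2 and 0 and CDH1 1 and 0. The part of these markers in the results below was not tested. In pooled RNA, fewer cells of a type and less RNA per cell cannot be told apart.

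The MYC paralogues differed from each other far more than they differed between treatments. MYC (ENSG00000136997, chromosome 8, 127735434 to 127741434, GRCh38) was close to absent, with 3 counts in ethanol (95% Poisson interval 0.619 to 8.77) and 0 in Nutlin-3. Its level was 2.24 CPM in ethanol, and the count of 0 allows up to 2.31 CPM in Nutlin-3. That limit is 3 counts of the total, a floor that is tighter than the upper end of the exact 95% interval, 2.83 CPM. Both pools were at or under that limit, so no fold change is given. The 3 MYC counts came from 3 large columns, and no other column of either pool held one. Columns with MYC made up 1.2% of the ethanol pool, and 0 of 250 Nutlin-3 columns allows a share of up to 1.2% by the same floor of 3, and up to 1.46% by the exact interval. With 1 cell line in the table there is no cell type that should lack a gene, so the share of columns that free RNA alone would give is unknown.

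MYCL (ENSG00000116990, chromosome 1, 39895426 to 39902256), the paralogue first found amplified in small cell lung cancer, had 39 counts in ethanol (27.7 to 53.3) and 38 in Nutlin-3 (26.9 to 52.2). Its level was 29.1 CPM and 29.2 CPM. The log2 ratio (the log2 fold change, Nutlin-3 against ethanol, with 0.5 counts added to each sum) was 0.01, with a 95% interval from counting error of -0.67 to 0.69. That interval is wide enough to hold a difference of over 1.5-fold either way. MYCN, for comparison, had 1140 counts in ethanol (1075 to 1208) and 877 in Nutlin-3 (820 to 937), or 849 and 674 CPM, and was number 8 of all genes by mean CPM. It made up 96.4% of the counts of the 3 MYC paralogues in ethanol and 95.8% in Nutlin-3. Its log2 ratio was -0.33 (-0.46 to -0.20), and in the small columns alone -0.08 (-0.37 to 0.22). There MYCN stood at exactly 1 count in 88 of 137 columns in ethanol and in 98 of 137 in Nutlin-3.

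**Figure D1:**
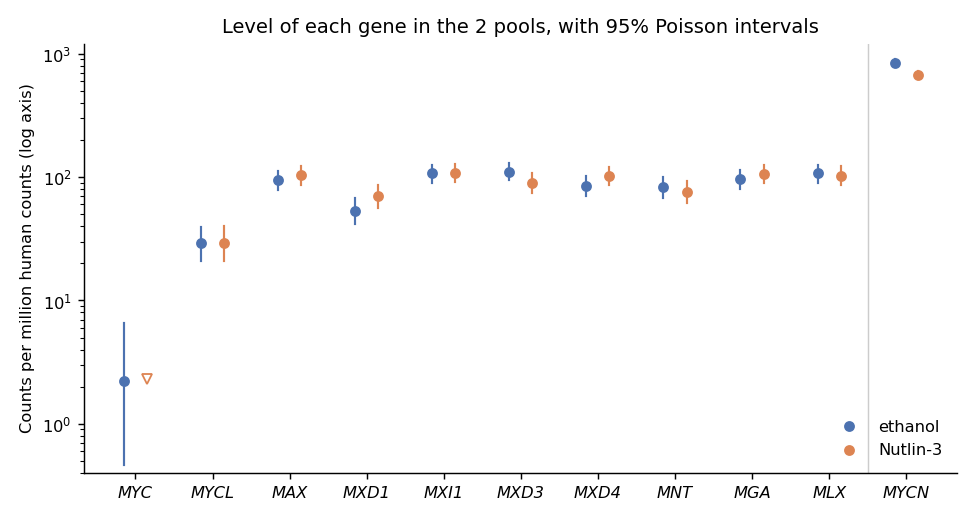
Level of each gene in CPM on a log axis, in the ethanol pool and in the Nutlin-3 pool; lines are 95% Poisson intervals, and the open triangle for MYC is the 2.31 CPM that a count of 0 allows. MYCN lies far above the others, 8 genes of the network lie between 53.6 and 111 CPM in both pools, MYCL lies near 29 CPM, and MYC is at the detection limit.

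MAX (ENSG00000125952, chromosome 14, 65006174 to 65102695), the partner with which MYC and the MXD proteins bind DNA, had 127 counts in ethanol (106 to 151) and 135 in Nutlin-3 (113 to 160). These were 94.6 and 104 CPM, with a log2 ratio of 0.14 (-0.22 to 0.50). The interval held 0. MYCN, its partner, stood far above it in ethanol, at 849 CPM. Reads of this kit come from transcript ends, so counts do not grow with gene length. Levels of different genes can still be compared only roughly, because of how counts were spread over columns.

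In the large columns most network genes stood at exactly 1 count. MAX had 1 count in 100 of the 113 large ethanol columns and in 97 of the 113 large Nutlin-3 columns, 0 counts in 4 and 6, and 2 or more in 9 and 10. MXI1 had 1 count in 103 and 101 of them, MGA in 103 and 102, and MLX in 98 and 101. The ratio of variance to mean over the large columns, which is 1 for Poisson counts, was 0.133 for MAX in ethanol and lay between 0.0820 and 0.177 for MAX, MXD3, MXD4, MXI1, MNT, MGA and MLX in both pools. The same was seen across the table. In the large ethanol columns 4525 genes had a mean between 0.9 and 1.2. Among these, the median gene had exactly 1 count in 100 of 113 columns, and among 4270 such genes in Nutlin-3 in 99. The Poisson and binomial intervals given here take that ratio as 1, so for these genes they do not describe the spread seen over the large columns. Where nearly every large column holds 1 count in both pools, the sums have little room to differ. A log2 ratio near 0, or an interval that holds 0, therefore does not show that the level of such a gene was unchanged. The reason for this narrow spread was not tested. MYCL and MXD1 were scarcer, and nearly all of their large columns held 0 or 1 count. Their ratios of variance to mean were still below 1, at 0.67 and 0.422 in ethanol and 0.679 and 0.269 in Nutlin-3. Counts in the small columns were further from the narrow spread. MYCN had a median of 8 counts per large column in ethanol and 5 in Nutlin-3, with ratios above 1, at 3.26 and 3.39. For MYCN the counting intervals are therefore too narrow to describe its spread over the large columns.

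**Figure D2:**
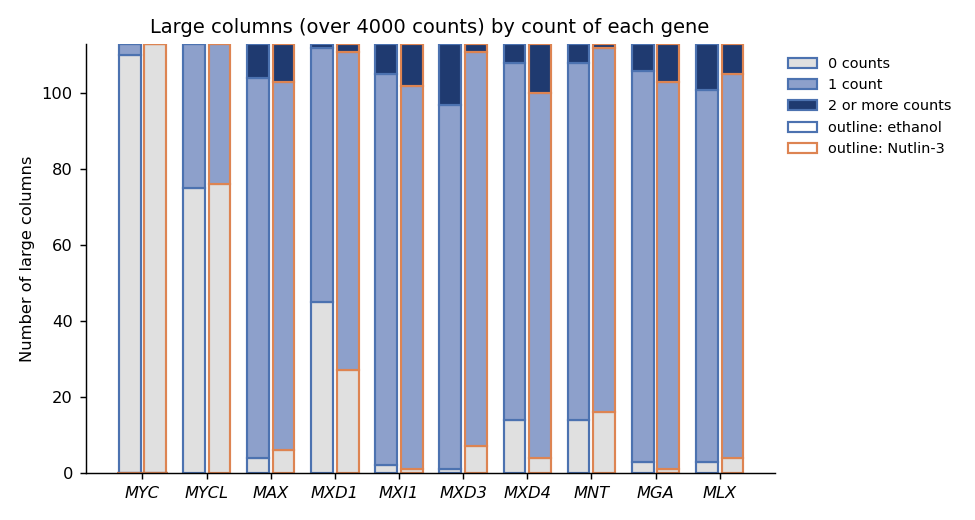
Number of large columns (113 per pool) with 0, 1 and 2 or more counts of each gene, with bar outlines giving the pool. MXD1 is absent from 45 ethanol and 27 Nutlin-3 columns, MXD3 has 2 or more counts in 16 ethanol and 2 Nutlin-3 columns, and most other genes have 1 count in about 100 columns of each pool.

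The 4 MXD-type repressors carry a short N-terminal stretch that recruits the SIN3 corepressor, and their values lay on both sides of 0. MXD1 (ENSG00000059728, chromosome 2, 69897688 to 69942945), a gene usually switched on as cells stop dividing and differentiate, had 72 counts in ethanol (56.3 to 90.7) and 91 in Nutlin-3 (73.3 to 112), or 53.6 and 69.9 CPM. Its log2 ratio of 0.38 (-0.08 to 0.85) was the highest of the 9 genes with a value. In the large columns it was seen in 68 of 113 in ethanol, or 60.2% (95% exact interval 50.5 to 69.3), and in Nutlin-3 in 86 of 113, or 76.1% (67.2 to 83.6). These 2 intervals take each column as an independent draw. Columns are not replicates of a treatment, so the intervals do not test the difference between pools. The small columns held 3 MXD1 counts in each pool, too few for a ratio. MXD1 overlaps SNRNP27 on the same strand in the annotation, a gene with 122 and 117 counts, so some of its reads could have been given to either.

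MXD3 (ENSG00000213347, chromosome 5, 177301461 to 177312757) is the member of the group that is found in dividing cells, with expression tied to S phase. It had 149 counts in ethanol (126 to 175) and 116 in Nutlin-3 (95.9 to 139), or 111 and 89.1 CPM. Its log2 ratio of -0.31 (-0.68 to 0.05) was the lowest of the same 9, with MYCN at -0.33. Both classes of columns held fewer MXD3 counts in Nutlin-3. In the large columns there were 128 against 108 counts, a log2 ratio of -0.20 (-0.59 to 0.18), and the number of columns with 2 or more counts was 16 in ethanol and 2 in Nutlin-3. In the small columns there were 21 against 8 counts, a log2 ratio of -1.22 (-2.66 to -0.04), whose interval left out 0 narrowly. MXD3 overlaps RAB24 on the same strand, with 87 and 89 counts, and PRELID1 on the other, with 177 and 158 counts. Whether the counting used strand is not given in the sources used here.

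MXD4 (ENSG00000123933, chromosome 4, 2247432 to 2262294), which like MXD1 is known from differentiating and resting cells, had 114 counts in ethanol (94.0 to 137) and 133 in Nutlin-3 (111 to 158). Its level was 84.9 and 102 CPM and its log2 ratio 0.27 (-0.10 to 0.64). In the large columns it was absent from 14 in ethanol and from 4 in Nutlin-3, and had 2 or more counts in 5 and 13. In the small columns the counts were 10 and 11. MXI1 (ENSG00000119950, chromosome 10, 110207605 to 110287365), also called MXD2, had 143 counts in ethanol (121 to 168) and 140 in Nutlin-3 (118 to 165), with a log2 ratio of 0.02 (-0.33 to 0.36). Its values in the 2 classes of columns lay on opposite sides of 0, with 119 against 125 counts in the large and 24 against 15 in the small ones. Neither interval left out 0.

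MNT (ENSG00000070444, chromosome 17, 2384060 to 2401118) is the broadly expressed repressor that pairs with MAX or MLX and also recruits SIN3. It had 111 counts in ethanol (91.3 to 134) and 99 in Nutlin-3 (80.5 to 121), or 82.7 and 76.1 CPM, and a log2 ratio of -0.12 (-0.52 to 0.29). Its large columns differed little, with 104 and 98 counts. In the small columns there were 7 counts in ethanol (2.81 to 14.4) and 1 in Nutlin-3 (0.0253 to 5.57), a log2 ratio of -2.20 whose interval of -8.18 to 0.27 shows how little 8 counts can resolve. MGA (ENSG00000174197, chromosome 15, 41621224 to 41773081), the largest protein of the network and a scaffold of the Polycomb-type repressor PRC1.6, had 129 counts in ethanol (108 to 153) and 138 in Nutlin-3 (116 to 163). Its log2 ratio was 0.15 (-0.21 to 0.50), with 118 against 122 counts in the large columns and 11 against 16 in the small ones.

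MLX (ENSG00000108788, chromosome 17, 42567068 to 42573239), the hub of the glucose-sensing branch, had 143 counts in ethanol (121 to 168) and 134 in Nutlin-3 (112 to 159), or 107 and 103 CPM. The log2 ratio was -0.04 (-0.40 to 0.30), with 123 against 118 counts in the large columns and 20 against 16 in the small ones. Its partner MLXIP, also called MondoA, was counted more often, with 410 and 374 counts and a log2 ratio of -0.08 (-0.29 to 0.12). MLXIPL was not analysed here. MLX overlaps PSMC3IP on the opposite strand, with 122 and 108 counts, and MAX overlaps FNTB on the opposite strand, with 52 and 46.

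E-boxes in the genes' own promoters are shown because the E-box is the element that these proteins bind. RefSeq windows of 300 bases (GRCh38.p14, from 250 before to 50 after the start) were searched for the 9 genes other than MYC. They made 14 windows, of which some belong to alternative starts. MYC was left out of this view by choice. The letters CACGTG, which read the same on both strands, occurred in 1 window each of MXD4, MNT and MLX, from base 13, 58 and 201. They occurred in 7.26% of the 35116 windows of all genes. Neither GGCGGGAA, an E2F site searched on both strands, nor the p53 half-site consensus occurred in any window of the 9 genes or of MYCN, against 3.16% and 6.63% of all windows. No match says only that these letters are not in these windows. The sequences are given 5′ to 3′ on the gene's strand, with the E-box in capitals. Only the 250 bases before the start are shown. They lie at chr4:2262110-2262359 on the minus strand for MXD4, chr17:2401061-2401310 on the minus strand for MNT and chr17:42566850-42567099 on the plus strand for MLX.
MXD4: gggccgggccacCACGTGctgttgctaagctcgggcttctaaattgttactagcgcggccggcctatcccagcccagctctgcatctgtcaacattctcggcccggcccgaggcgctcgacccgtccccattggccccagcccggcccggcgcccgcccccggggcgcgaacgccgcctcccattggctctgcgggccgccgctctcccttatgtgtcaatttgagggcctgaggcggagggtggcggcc
MNT: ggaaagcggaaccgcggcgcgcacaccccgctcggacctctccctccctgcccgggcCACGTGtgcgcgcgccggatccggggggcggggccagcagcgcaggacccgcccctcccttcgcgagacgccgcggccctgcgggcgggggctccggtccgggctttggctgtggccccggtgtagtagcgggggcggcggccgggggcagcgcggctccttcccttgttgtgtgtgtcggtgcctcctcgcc
MLX: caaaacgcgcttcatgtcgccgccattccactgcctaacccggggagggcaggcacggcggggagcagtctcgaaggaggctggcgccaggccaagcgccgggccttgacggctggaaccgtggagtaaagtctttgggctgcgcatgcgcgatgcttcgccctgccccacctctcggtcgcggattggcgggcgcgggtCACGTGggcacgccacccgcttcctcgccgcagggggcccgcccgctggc

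For the 3 genes with an E-box in these windows the log2 ratios were 0.27 for MXD4, -0.12 for MNT and -0.04 for MLX, and all 3 intervals held 0.

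As a group, 9 of the 10 genes passed the filter on low counts, MYC being the exception, and of these 6 were above 0 and 3 below. Their median log2 ratio was 0.02, against 0.00 for the 14830 genes that passed. A gene was counted as called when its fold was at least 1.3, without a test. Only MXD1 was called, and it was higher, at a fold of 1.31 that lies on the threshold. Among all genes that passed, 12.9% were called higher and 10.4% lower. Among the 8844 with a mean of at least 50 CPM, a class that holds 8 of the 9, 2.40% were called higher and 2.42% lower. The single call, at a ratio on the threshold and with an interval that holds 0, is not a result about the network. MXD1 stood at 0.37 over the columns whose names occur in both pools, 0.36 with DESeq2 size factors and 0.34 with the larger pool thinned, all just short of the threshold. At a fold of 1.5, which 13.7% of all genes passed in one direction or the other, 0 of the 9 were called.

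In the small columns 6 of the 10 genes passed the filter, and 4 of them were called, MAX and MGA higher and MXD3 and MXI1 lower. The background there was 48.1% of 4762 genes in either direction. MAX had 8 counts in the ethanol pool and 18 in the other in these columns, a log2 ratio of 1.24 (0.02 to 2.70), while its large columns gave 0.02 (-0.36 to 0.40). With ERCC counts in place of human counts as the library size, every log2 ratio was lower by one constant. The median of all genes was then -0.47, 66.3% of genes were called lower, and 5 of the 9 were, namely MYCL, MXD3, MXI1, MNT and MLX. All 9 were then below 0, MXD1 at -0.09, MXD4 at -0.20, MGA at -0.33 and MAX at -0.34, so a value above 0 in this text is one relative to the other human genes. The ERCC totals were 2989 counts in ethanol and 4007 in Nutlin-3. In each treatment the spike-in was diluted 1000-fold in 1 library and 10000-fold in the other, and columns carry no library. An unequal mix of libraries and a difference in human RNA per column therefore cannot be told apart in this shift.

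**Figure D3:**
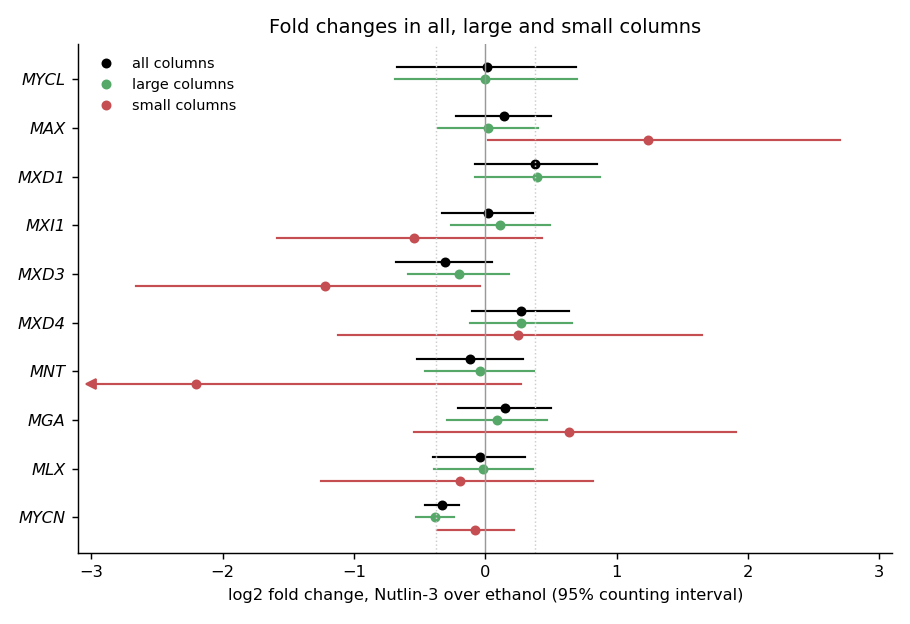
Log2 fold change between treatments (Nutlin-3 over ethanol) for each gene in all, large and small columns, with 95% counting intervals; dotted lines mark a fold of 1.3, the interval of MNT in small columns runs on to -8.18, and MYCL and MXD1 have no value in small columns, where neither pool exceeded 3 counts. Intervals over all columns hold 0 for every gene except MYCN, whose counts spread more widely over large columns than the intervals assume. MXD3 lies below 0 in both classes of columns.

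The order of mean levels over both pools was MXI1 (107 CPM), MLX (105), MGA (101), MXD3 (100), MAX (99.2), MXD4 (93.6), MNT (79.4), MXD1 (61.8), MYCL (29.1) and MYC (1.12). The Poisson intervals of the first 7 overlapped with each neighbour in both pools. MNT and MXD1 were apart in ethanol, at 68.0 to 99.6 against 42.0 to 67.6 CPM, and overlapped in Nutlin-3. MYCL lay below MXD1, and MYC below MYCL, in both pools. The small columns, where counts were furthest from the point of 1 per column, gave a wider spread in ethanol, from 24 counts of MXI1, 21 of MXD3 and 20 of MLX through 11 of MGA, 10 of MXD4, 8 of MAX and 7 of MNT to 3 of MXD1, 1 of MYCL and 0 of MYC. MYCN had 212 counts there. When each column was thinned to 700 counts, which left 194 ethanol and 187 Nutlin-3 columns and dropped 56 and 63 as too shallow, the shares of columns with a count ran from 0% for MYC to 9.28% for MXD3 in ethanol and to 10.7% for MXI1 in Nutlin-3. MNT was seen in 4.64% (2.14 to 8.62) and 0.535% (0.0135 to 2.94) of thinned columns, and in 42.4% and 39.2% of columns without thinning.

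Repressor and activator transcripts were also set against each other, since both kinds of protein pair with MAX. The 6 repressors MXD1, MXD3, MXD4, MXI1, MNT and MGA summed to 718 counts in ethanol and 717 in Nutlin-3. MYC, MYCL and MYCN summed to 1182 and 915. The repressors came to 0.607 counts per count of MYC paralogues in ethanol (95% exact interval 0.553 to 0.667), against 0.784 in Nutlin-3 (0.710 to 0.865). The sum of repressors was thus nearly equal, and that of the MYC paralogues, mostly MYCN, was smaller in Nutlin-3. These intervals do not cover the wide spread of MYCN over the large columns. The higher ratio in Nutlin-3 was seen in the large columns, while in the small columns the intervals overlapped and no direction was resolved. Large columns gave 0.663 (0.599 to 0.733) and 0.909 (0.817 to 1.01), and small columns, where MYCN itself was mostly at 1 count, gave 0.357 (0.271 to 0.466) and 0.290 (0.210 to 0.395). Per MAX count there were 5.65 repressor counts in ethanol (4.68 to 6.88) and 5.31 in Nutlin-3 (4.41 to 6.43). Large columns gave 5.39 (4.43 to 6.62) and 5.67 (4.65 to 6.96) per MAX count, and small columns 9.5 (4.58 to 22.8) and 3 (1.73 to 5.44). MAX and all 6 repressors stood at 1 count in most large columns of both pools, MXD1 least often, in 67 and 84 of 113. Their sums and this ratio had little room to differ there, so near-equal values do not show equal expression.

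Partners through which the network acts were taken from lists of complexes and targets. Their calls are read against the 12.9% of all genes called higher and 10.4% called lower, or 2.40% and 2.42% from 50 CPM, the class that holds most of the listed genes. Of all genes that passed, 7463 were above 0 and 7367 below, and from 50 CPM 4249 were above and 4595 below, with a median of -0.01. Of the SIN3 corepressor, recruited by MXD proteins and MNT, all 14 genes passed, 4 above 0 and 10 below, with a median log2 ratio of -0.09. ING2, a reader of histone methylation at 34.0 CPM, was the only one called, and it was lower at -0.40 (-1.05 to 0.23). One of 14 is near the 10.4% of all genes. ING2 falls outside the rule for named genes and was chosen after its value was seen. The extremes among better counted genes were SIN3B, one of the 2 scaffolds, at 0.15 (-0.30 to 0.61) and BRMS1, a small subunit, at -0.37 (-0.78 to 0.03). PRC1.6, the complex built on MGA and MAX, had all 12 listed genes passing, all from 50 CPM, and 0 called, with a median of -0.04. At shares of 2.40% and 2.42%, 0 of 12 does not set the list apart. Its values ran from -0.30 (-0.73 to 0.13) for E2F6, a repressive E2F, to 0.07 (-0.31 to 0.45) for the histone methyltransferase EHMT1.

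MYC coactivators, which share WDR5 with PRC1.6, likewise had 12 of 12 genes passing and 0 called, 6 above 0 and 6 below, with a median of -0.02. That count too does not set the list apart from 2.40% and 2.42%. RUVBL1, an ATPase of chromatin remodellers, was lowest at -0.15 (-0.49 to 0.18), and the acetyltransferase EP300 highest at 0.19 (-0.20 to 0.58). Of 12 genes that set the stability of MYC proteins 11 passed, 3 above 0 and 8 below, with a median of -0.10. CIP2A, which shields MYC from the phosphatase PP2A, was the one called, with 109 counts in ethanol and 74 in Nutlin-3 and a log2 ratio of -0.51 (-0.96 to -0.07). Its interval left out 0. One called of 11 is near the 10.4% of all genes, and above the 2.42% from 50 CPM by a single gene. HUWE1, a ubiquitin ligase, was highest at 0.19 (-0.15 to 0.54), and AURKA, the kinase that protects MYCN protein from degradation, had 153 and 132 counts. The ligase FBXW7 had 119 and 124 counts. AURKA and FBXW7 were chosen after their values were seen.

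Targets gave the last view. TXNIP and ARRDC4, the arrestin-type genes driven by MLX with MLXIP when glucose is ample, were both above 0. TXNIP had 135 counts in the ethanol pool and 148 in the other, a log2 ratio of 0.18 (-0.17 to 0.53), and ARRDC4 had 116 and 131, a value of 0.22 (-0.15 to 0.60). Neither was called. All 40 MYC target genes passed, 12 above 0 and 28 below, with a median of -0.09 against 0.00 for all genes that passed. Among all genes from 50 CPM, 4249 were above 0 and 4595 below, with a median of -0.01. Of the 40 targets, 1 was called higher and 2 lower, shares below the 12.9% and 10.4% of all genes. From 50 CPM only LDHA was called, where 2.42% of all genes were called lower. LDHA, lactate dehydrogenase A, had 350 counts in the ethanol pool and 228 in the other, the lowest value among targets of at least 50 CPM at -0.57 (-0.82 to -0.32). NPM1, a nucleolar chaperone, was the highest of them at 0.13 (-0.10 to 0.35). The other 2 called genes were scarce and were chosen after their values were seen. TERT, the telomerase subunit, had 20 and 11 counts, and CCND2, cyclin D2, had 3 and 17, a log2 ratio of 2.37 (0.76 to 4.96).

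**Figure D4:**
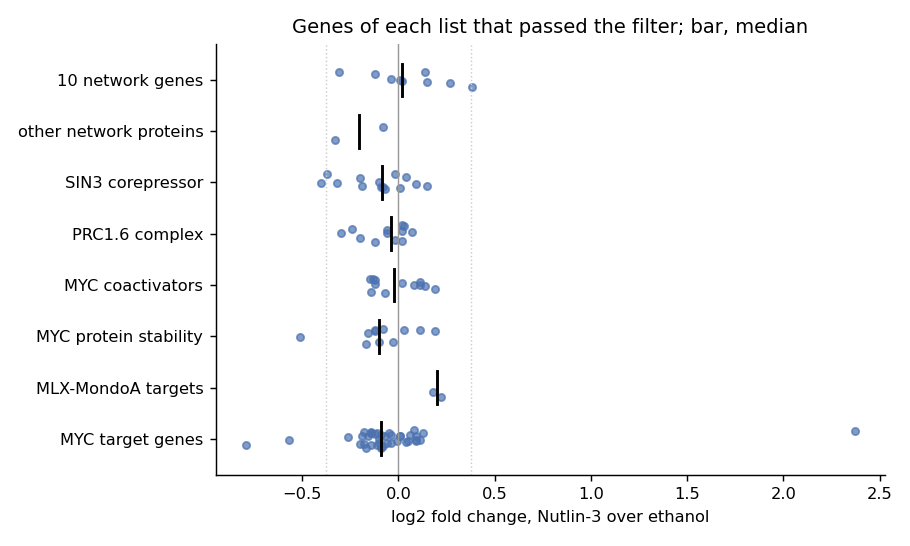
Log2 fold change between treatments (Nutlin-3 over ethanol) for every gene that passed the filter in each list, with a bar at the median and dotted lines at a fold of 1.3. Nearly all points lie between the dotted lines, and those furthest out are CCND2 at 2.37, TERT at -0.79, LDHA at -0.57 and CIP2A at -0.51.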

How the data were processed

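RNA of NGP cells was measured in 4 droplet libraries, 2 per treatment. The authors deposited raw counts per gene and column, whole numbers up to 87, with 62 ERCC species. The libraries were made with the SureCell 3′ kit, per the labels' protocols. How reads were aligned and to which build or annotation, how molecular tags were handled and which columns were kept were not given in the sources used here. Columns ending in treated were taken as Nutlin-3 and those ending in untreated as ethanol, the only other treatment in the labels.

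Counts were summed per treatment without ERCC rows. Totals were scaled with TMM factors from edgeR 4.0.16 (1.0014 for ethanol, 0.9986 for Nutlin-3), and edgeR's filter with a count minimum of 10 kept 14830 genes. Intervals are exact Poisson or binomial at 95% and cover counting error only, taking counts as independent molecules. Gene names came from a table that gave a symbol for 25422 of 25693 identifiers, positions from GENCODE 29 on GRCh38 and promoters from RefSeq. That build need not be the authors'. The fold calculation was tested on simulated Poisson sums. These lack the narrow spread seen over the large columns, so the simulation does not cover it. No doublet caller was run, as all cells are of one line.

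Named were all 10 genes, MYCN, and of each other list the highest and lowest gene from 50 CPM and any past a fold of 1.5 that also reached 50 CPM. The mesenchymal, blood and epithelial markers analysed are all named, mostly outside that rule. The genes, the lists, the fold of 1.3 and the column limit of 4000 were chosen with earlier results of these data known. Alternatives were DESeq2 1.42.0 size factors, unscaled totals, ERCC totals, subsets of columns, 1 count added, thinning, no filter and a fold of 1.5.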

Additional observations from a re-analysis of the deposited data

How the results depend on the processing

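No paired analysis was possible because columns carry no library, and for the same reason no library could be left out. Of 79 fold changes of the 9 genes with a value, under 9 alternatives, 66 stayed within the counting interval of the first value, 12 left it, and 1, that of MXD1 at -0.09 with ERCC totals, changed sign from a called value. ERCC totals accounted for 8 of these 13 and small columns for 5. The number of genes called was 1 (MXD1) and became 0 with DESeq2 size factors, with only the columns whose names occur in both treatments, with the larger pool thinned or at a fold of 1.5. It was 4 of the 6 that passed in small columns, where 48.1% of all genes tested were called. With ERCC totals it was 5 of 9, where 70.7% of all genes tested were called. The ratio of repressor to MYC-type counts was 0.357 in ethanol in small columns, and in Nutlin-3 it was 0.909 in large and 0.290 in small columns. With ERCC totals the medians were -0.45 for the network genes, -0.56 for the SIN3 corepressor, -0.51 for PRC1.6, -0.50 for MYC coactivators, -0.57 for MYC protein stability and -0.56 for MYC targets, where that of all genes was -0.47. In small columns the median was -0.18 for MYC protein stability and -0.15 for MYC targets. ERCC totals shift every gene by one constant, which also depends on each pool's unknown mix of the 2 spike-in dilutions. Fewer genes and counts enter in small columns. Beyond this the cause was not tested.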
